A study of Drosophila melanogaster with 6 samples.

Results

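The genes described here are the cytosolic ribosomal protein genes of Drosophila and their paralogs, taken as every row of the deposited expression table with a gene symbol that starts with RpL, RpS or RpLP. This choice uses names alone and no measured value. It gave 92 genes of 16662 rows. Of these, 78 are the main genes, of which 47 encode proteins of the large subunit, P stalk included, and 31 encode proteins of the small subunit. The other 14 are paralogs in 13 sets, 7 for each subunit. The genes sta (encoding RpSA) and Rack1, whose products also sit on the small subunit, carry other symbols and are given separately. RNA-seq was carried out on total RNA from whole larvae of the third instar, with 2 libraries for each of 3 genotypes and 6 libraries in all. The genotypes were the yw strain as control and the homozygous stocks of HP1b16 and of HP1b86, alleles of the X-linked gene HP1b. Both alleles are deletions from imprecise excision of a P element that remove the start codon of HP1b, both stocks were backcrossed to yw, and all larvae were raised at 25 °C. HP1b16 still makes an aberrant RNA from the locus. HP1b is one of the Drosophila Heterochromatin Protein 1 genes.

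A cytosolic ribosome is built from a small subunit, which reads the mRNA, and a large subunit, which joins the amino acids, and each ribosomal protein is needed in about the same number of copies. The genes are therefore among the most strongly transcribed in growing tissue, and in Drosophila the loss of 1 copy of many of them gives the Minute phenotype of slow development and thin bristles. Most of these proteins have a single gene, and a few have a second gene, often with RNA that is mostly found in the gonads. A further few genes with ribosomal protein names encode relatives of these proteins that, in yeast, help to assemble the ribosome.

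The values are FPKM, fragments scaled to transcript length and to the fragments of the library, so levels of different genes can be compared. The depth behind a value is not part of the table, and an FPKM of 0 can be a failed estimate. HP1b itself had 22.8 and 24.2 FPKM in yw, 2.55 and 3.13 FPKM in HP1b16, and 0.121 and 0.0403 FPKM in HP1b86. The libraries did not have the same FPKM total. It was 654430 and 657936 in yw, 768520 and 778651 in HP1b16, and 1132181 and 874571 in the first and second HP1b86 libraries. In 10 rows, none of them of a ribosomal protein gene, 1 library was listed at 0 and another at 500 FPKM or more. These rows held 3.59% to 9.20% of the total of 5 libraries, and all 10 were listed at 0 in the second HP1b16 library. The storage proteins that mark late larvae (Lsp1alpha, Lsp1beta, Lsp1gamma, Lsp2) and Fbp1 were among the genes listed at 0 in some libraries, so that 5 of 9 whole-larva markers could not be compared between genotypes. Of the other 4, Mhc (muscle myosin) stood at 27.7 and 46.4 FPKM in yw, at 350 and 454 in HP1b16, and at 236 and 138 in HP1b86, and Hml (hemocytes) at 6.17 and 8.63, at 14.9 and 20.7, and at 22.2 and 11.1. As deposited, both were thus higher in all 4 mutant libraries than in both yw libraries, as were 24.4% of all tested rows. The neuronal gene elav stood at 8.73 to 16.4 FPKM in the yw and HP1b16 libraries and lower, at 3.89 and 4.40, in HP1b86. The salivary glue gene Sgs3 stood at 4833 and 5119 FPKM in yw, at 3983 and 2884 in HP1b16, and at 1993 and 4693 in HP1b86. All 4 mutant libraries were thus below both yw libraries for Sgs3 as deposited, as for 19.8% of all tested rows. The part of these markers' differences in the ribosomal protein values was not tested. Because the totals differ, each result is given for FPKM as deposited and for FPKM scaled to the same total of 1000000 in every library. In whole larvae, fewer cells of a type and less RNA per cell cannot be told apart. Whether the paired libraries of each genotype are separate larval collections is not stated anywhere, and p-values then reflect only the library-to-library spread, which may be technical.

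The ribosomal protein genes were among the most abundant transcripts of these larvae. The 92 genes held 18.7% and 17.7% of the summed FPKM in the yw libraries, which gave a mean of 18.2% ± 0.706 (SD, n = 2). Their share was 16.0% and 17.3% in HP1b16, with a mean of 16.7% ± 0.928 (SD, n = 2), and 15.7% and 14.9% in HP1b86, with a mean of 15.3% ± 0.539 (SD, n = 2). All 4 mutant libraries lay below both yw libraries. A two-sided exact permutation test of yw against the mutants gave p = 0.0667, which is the smallest p that its 15 arrangements allow, so the design cannot reach 0.05. The share does not change with the scaling of a library, but it does move with the 10 rows listed at 0. Over rows above 0 in every library it was 19.5% and 18.5% in yw, 16.6% and 17.3% in HP1b16, and 17.3% and 16.0% in HP1b86, again with no overlap (exact permutation p = 0.0667). The paralogs together held only 0.0874% to 0.134% of a library.

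RpLP1, an acidic protein of the P stalk that recruits translation factors, had the highest mean FPKM. It stood at 3546 and 3298 FPKM in yw, at 3725 and 3872 in HP1b16, and at 4614 and 3322 in HP1b86. RpL41, the smallest protein of the ribosome, stood at 3233 and 2559 FPKM in yw, at 2594 and 2880 in HP1b16, and at 5090 and 3914 in HP1b86. RpL41 thus passed RpLP1 in both HP1b86 libraries and in none of the others. RpS29, a zinc-binding protein of the small subunit, ranged from 2903 to 4051 FPKM over the 6 libraries. The lowest main gene in every library was RpS14a, with 340 to 738 FPKM, and the median main gene lay at 1454 and 1394 FPKM in yw, 1472 and 1620 in HP1b16, and 2087 and 1454 in HP1b86.

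As deposited, the main genes were shifted upward together in the mutants, and most of that shift came from 1 library. All 78 main genes had their highest FPKM in the first HP1b86 library, where all 78 were above both yw libraries. In the second HP1b86 library 45 of 78 were above both yw libraries, in the first HP1b16 library 41 and in the second 70. The second HP1b86 library held 0.627 to 0.813 times the FPKM of the first across the 78 genes, with a median of 0.728. Within HP1b16 all 78 were higher in the second library than in the first, and within yw 60 of 78 were higher in the first. The main genes therefore moved as a block between libraries of the same genotype as well, with a spread between libraries (pooled SD of the block's genes) of 0.10 log2 in yw and in HP1b16 and 0.33 in HP1b86.

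The direction of the shift depended on the scale. On FPKM as deposited, the median log2 fold change of the 78 main genes against yw was 0.11 in HP1b16 and 0.34 in HP1b86, and 0.24 for the mean of both mutants, beside medians over all 10986 tested rows of -0.10, -0.00 and -0.08. With the libraries scaled to the same total, the same medians were -0.13, -0.26 and -0.18, beside -0.32, -0.53 and -0.45 over all rows. On both of these scales the main genes lay above the median row. With quantile normalization this order did not hold, since the main genes had medians of -0.16, -0.29 and -0.24 beside -0.13, -0.10 and -0.15 over all rows. With median-ratio scaling the medians of the main genes were above 0, at 0.22, 0.39 and 0.32 beside -0.00, 0.04 and -0.01 over all rows. As deposited, all 4 mutant libraries were above both yw libraries for 27 of 78 main genes and below both for 0, beside 24.4% and 19.8% of all tested rows. After scaling it was 0 of 78 above and 36 of 78 below, beside 12.7% and 43.4% of all rows. The 36 main genes are thus near the share of all rows, and the 27 as deposited are above it. With the total taken over rows above 0 in every library, 45 of 78 were below and 0 above, beside 43.7% and 13.3% of all rows. These 45 are above the share of all rows, so this reading too depends on the scale. The median change in HP1b86 was 0.57 without its second library and 0.10 without its first.

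**Figure D1:**
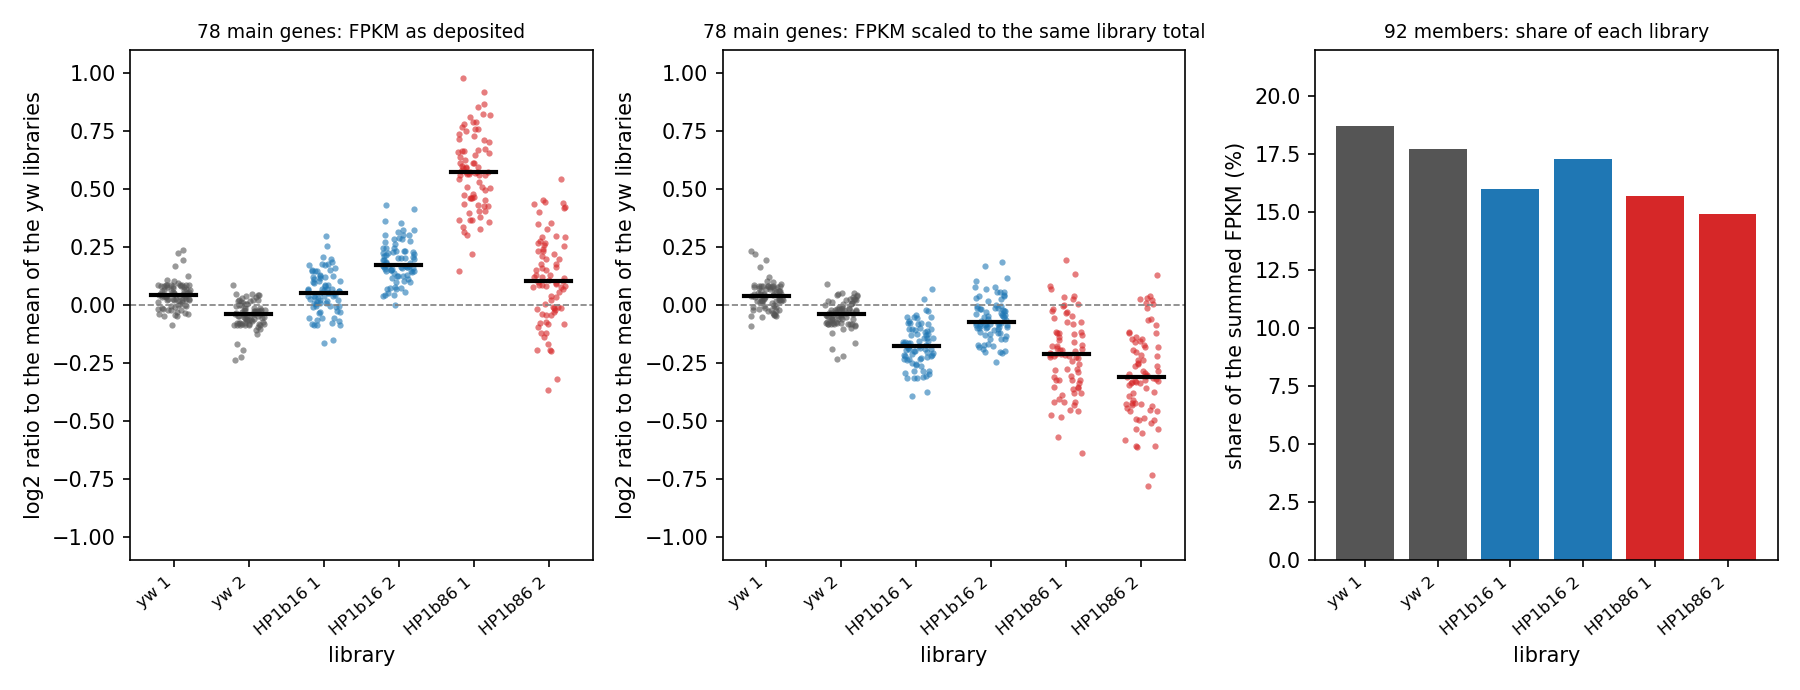
Left and middle, log2 ratio of FPKM + 1 to the mean of the yw libraries for each of the 78 main genes (points) in the 6 libraries, as deposited and scaled to the same library total, with the median as a black line; right, the share of the summed FPKM held by all 92 genes. The first HP1b86 library has a median of 0.57 as deposited, the median of every mutant library lies below both yw medians once scaled, and the share falls from 18.7% and 17.7% in yw to 15.7% and 14.9% in HP1b86.

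Few single ribosomal protein genes passed the test. Of the 91 genes with a mean of at least 1 FPKM, limma on log2(FPKM + 1) with adjustment over all tested rows called 0 in HP1b16, where 0.0182% of all rows were called, and 0 in the mean of both mutants, where 6.38% were called. In HP1b86 it called 1 gene, RpS14b, where 4.03% of all rows were called. Between HP1b16 and HP1b86 it called 0, where 0.00910% were called. At an unadjusted p under 0.05 the counts were 0 in HP1b16 (23.7% of all rows), 8 in HP1b86 (30.0%), 1 in the mean of both mutants (31.1%) and 6 between the mutants (7.90%). Without the second HP1b86 library, which leaves 1 library for that genotype and assumes that it varies like the others, 26 genes were called in HP1b86, 25 higher and 1 lower, beside 42.6% of all rows. In the mean of both mutants 10 were called in that fit, 8 higher and 2 lower, beside 46.0%. Without the first HP1b86 library, 5 genes were lower in HP1b16 than in HP1b86, beside 18.3% of all rows. They were RpS14b and the paralogs RpL22-like, RpS28-like, RpS19b and RpS5b.

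After scaling to the same library total, limma called 0 ribosomal protein genes in HP1b16 (2.66% of all rows), 3 in HP1b86 (18.9%), 0 in the mean of both mutants (11.1%) and 0 between the mutants (0.00910%). The counts at an unadjusted p under 0.05 were 1 (23.5%), 23 (43.4%), 10 (40.8%) and 6 (13.0%). Of the 3 genes called in HP1b86, RpS14b was higher, and RpL15 and RpS25 were lower. Without the second HP1b86 library 11 genes were called in that comparison, 1 higher and 10 lower, beside 74.5% of all rows. With all 6 libraries and both directions counted together, the share of the 91 genes called was below that of all rows in each comparison, on both scales. The fits with 1 HP1b86 library are not read this way, since that genotype then has no spread of its own.

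The upward shift as deposited was seen in each subunit. The median log2 fold change in HP1b86 was 0.37 for the 44 genes of the large subunit outside the P stalk, 0.28 for the 31 of the small subunit and 0.27 for the 3 of the P stalk. In HP1b16 the medians were 0.10, 0.13 and 0.15. The P stalk genes RpLP0, RpLP1 and RpLP2 differed among themselves. RpLP0, the scaffold of the stalk, stood at 949 and 997 FPKM in yw, at 1194 and 1313 in HP1b16, and at 1707 and 1133 in HP1b86, above both yw libraries in all 4 mutant libraries as deposited, with log2 fold changes of 0.36 in HP1b16 (SE 0.25, adjusted p = 0.474 from limma) and 0.52 in HP1b86 (SE 0.25, adjusted p = 0.257 from limma). After scaling the genotypes overlapped, with log2 values of 0.13 and -0.08. RpLP1 had 0.15 and 0.20 as deposited, and -0.09 and -0.41 after scaling.

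Within the block, the genes differed more from each other in HP1b86 than in HP1b16. The SD of the log2 fold change over the 78 main genes was 0.17 in HP1b86 and 0.09 in HP1b16. The upper end in HP1b86 held RpL35A, RpS19a, RpL28, RpS14a and RpL41, of which RpS19a and RpS14a belong to the small subunit. RpL35A stood at 949 and 974 FPKM in yw, at 1004 and 1126 in HP1b16, and at 1897 and 1402 in HP1b86, so both HP1b86 libraries were above the other 4. Its log2 fold change in HP1b86 was 0.76 (SE 0.22, adjusted p = 0.106 from limma), the largest of the main genes. RpS19a, whose human counterpart is mutated in Diamond-Blackfan anaemia, stood at 1650 and 1588 FPKM in yw, at 1764 and 1921 in HP1b16, and at 2928 and 2193 in HP1b86, with a log2 fold change of 0.65 in HP1b86 (SE 0.23, adjusted p = 0.145 from limma). RpL28 of the large subunit stood at 1473 and 1444 FPKM in yw, at 1531 and 1703 in HP1b16, and at 2661 and 1954 in HP1b86, in a row that also holds 2 small nucleolar RNA genes. All 4 mutant libraries were above both yw libraries for these 3 genes as deposited, and after scaling all 3 overlapped with yw, with log2 values in HP1b86 of 0.16, 0.05 and 0.04. None of them was called on either scale with all 6 libraries. Without the second HP1b86 library, which leaves 1 library for that genotype, their log2 values as deposited were 0.98, 0.855 and 0.867. The median of the main genes was 0.57 in that fit, and 0.10 without the first HP1b86 library.

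RpL32, also known as rp49 and used in many Drosophila studies as a reference gene for RT-PCR, this one included, lay near them. It stood at 1702 and 1755 FPKM in yw, at 1661 and 1811 in HP1b16, and at 2945 and 2284 in HP1b86. HP1b16 overlapped with yw, and both HP1b86 libraries were above all others. The log2 fold change of RpL32 was 0.00 in HP1b16 (SE 0.22, adjusted p = 0.990 from limma) and 0.59 in HP1b86 (SE 0.22, adjusted p = 0.160 from limma), with an adjusted p of 0.0323 without the second HP1b86 library, the fit that called 42.6% of all rows. After scaling it was -0.23 in HP1b16 (SE 0.13, adjusted p = 0.349) and -0.02 in HP1b86 (SE 0.13, adjusted p = 0.930).

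By the scaled change in the mean of both mutants, the lower end held RpL15, RpS25, RpS21, RpS27 and RpS27A. In HP1b86 alone, RpL5 and RpL8 of the large subunit, at -0.55 and -0.52 after scaling, lay below RpS21 and RpS27, with 0.05 and 0.08 as deposited, and neither was called. RpL15, a protein of the large subunit, stood at 1865 and 1658 FPKM in yw, at 1754 and 1813 in HP1b16, and at 1948 and 1364 in HP1b86, where the groups overlapped. Scaled to the same total it stood at 2835 and 2533 in yw, at 2283 and 2329 in HP1b16, and at 1721 and 1560 in HP1b86, and all 4 mutant libraries were below yw. RpL15 had a log2 fold change in HP1b86 of -0.11 as deposited (SE 0.25, adjusted p = 0.885 from limma) and of -0.71 after scaling (SE 0.15, adjusted p = 0.0430 from limma), the lowest of the main genes on both scales. The call on the scaled values was lost without the first HP1b86 library (adjusted p = 0.0504).

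RpS25, a small-subunit protein that viral internal ribosome entry sites need in yeast and mammalian cells, stood on the same scale at 2912 and 2617 in yw, at 2371 and 2607 in HP1b16, and at 1861 and 1660 in HP1b86. Its log2 fold change in HP1b86 was -0.05 as deposited (SE 0.26, adjusted p = 0.954 from limma) and -0.65 after scaling (SE 0.15, adjusted p = 0.0477 from limma). This call too was lost without the first HP1b86 library (adjusted p = 0.0586) and with the total taken over rows above 0 in every library (adjusted p = 0.0563). RpS21, whose loss gives overgrown blood-forming organs in larvae, RpS27, a zinc-binding protein, and RpS27A, which is made as a fusion with ubiquitin, had log2 values of -0.49, -0.49 and -0.53 in HP1b86 after scaling and 0.11, 0.11 and 0.07 as deposited, and none was called. The row of RpS27A also holds the gene Ip259.

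Between the HP1b86 libraries the main genes kept close to a common ratio. RpL10, a late-joining protein of the large subunit in yeast, RpL10Ab and RpS13 fell furthest from the first to the second HP1b86 library, to 0.627, 0.657 and 0.658 times. RpL18, RpL40, which is made as a fusion with ubiquitin, and RpL37A fell least, to 0.809, 0.813 and 0.813 times.

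Transcript length, taken as the median over the annotated transcripts of a gene, went with the change in HP1b16 across the main genes. The 26 shortest genes (288 to 646 bases) had a median log2 fold change of 0.07 in HP1b16 as deposited, the 26 in the middle (648 to 805 bases) 0.11, and the 26 longest (812.5 to 1512 bases) 0.17. In HP1b86 the medians of the same groups were 0.35, 0.33 and 0.34. Spearman's rho between length and the log2 fold change over the 78 genes was 0.535 in HP1b16 and -0.116 in HP1b86. These are correlations across genes measured in the same libraries, and genes are not independent replicates. Length also went with the differences between libraries of 1 genotype, with a rho of -0.540 for the second against the first HP1b86 library, -0.256 within HP1b16 and 0.307 within yw. The part of length in the changes was not tested.

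**Figure D2:**
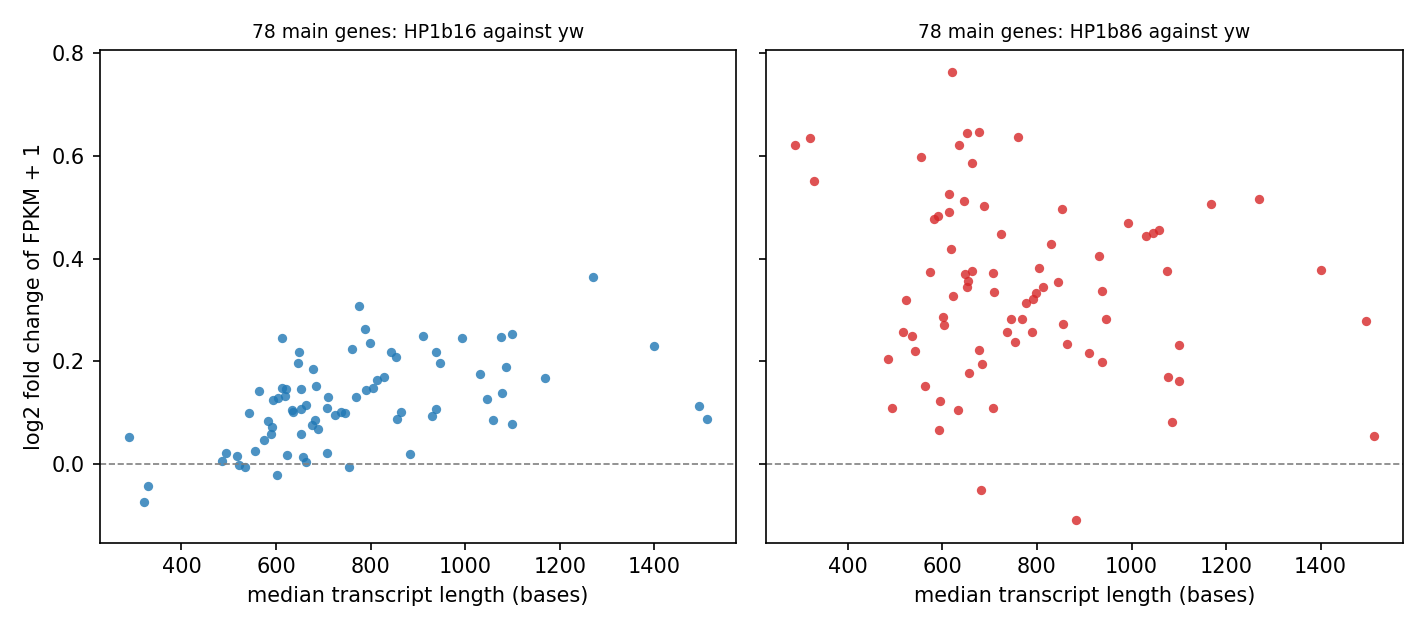
Log2 fold change of FPKM + 1 against yw, as deposited, for the 78 main genes (points) by median transcript length in bases, for HP1b16 (left) and HP1b86 (right). In HP1b16 the longest genes lie higher than the shortest, with a rho of 0.535, and in HP1b86 the rho is -0.116.

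RpS14b was the only ribosomal protein gene called as deposited with all 6 libraries. RpS14a and RpS14b are next neighbours on the X chromosome, a tandem pair that encodes identical proteins of the small subunit. RpS14b stood at 231 and 219 FPKM in yw, at 231 and 199 in HP1b16, and at 644 and 532 in HP1b86. Both HP1b86 libraries were thus above the other 4, and the means were 225 ± 8.59, 215 ± 22.4 and 588 ± 79.3 FPKM (SD, n = 2 each). The log2 fold change of RpS14b was 1.37 in HP1b86 (SE 0.17, adjusted p = 0.0419 from limma), -0.07 in HP1b16 (SE 0.17, adjusted p = 0.783) and -1.45 for HP1b16 against HP1b86 (SE 0.17, adjusted p = 0.287). Scaled to the same library total RpS14b stood at 352 and 335 in yw, at 300 and 256 in HP1b16, and at 569 and 608 in HP1b86, and the log2 fold change in HP1b86 was 0.78 (SE 0.15, adjusted p = 0.0409 from limma). RpS14b was higher in HP1b86 under each of 16 alternatives, with log2 values from 0.63 to 1.51 and an adjusted p from 0.00952 to 0.308, under 0.05 in 8 of 16. The call was lost when any of the yw or HP1b16 libraries was left out. No tested row at all was called in those fits, so the loss is not particular to RpS14b.

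As deposited both HP1b86 libraries of RpS14a were also above the other 4, and after scaling the genotypes overlapped. It stood at 446 and 340 FPKM in yw, at 431 and 481 in HP1b16, and at 738 and 498 in HP1b86, a log2 fold change in HP1b86 of 0.64 as deposited (SE 0.26, adjusted p = 0.196 from limma) and of 0.04 after scaling (SE 0.19, adjusted p = 0.875). RpS14b made up 34.1% and 39.2% of the summed FPKM of the pair in yw, 34.9% and 29.3% in HP1b16, and 46.6% and 51.6% in HP1b86. This share is free of the scaling of a library, and both HP1b86 values were above the other 4. A two-sided exact permutation test of HP1b86 against the 4 other libraries gave p = 0.0667, the smallest its 15 arrangements allow. Against yw alone no p under 0.333 is possible. RpS14b was called higher in HP1b86 from the same 6 libraries, so this test is not separate support. The sum of the pair was 46.6% and 40.1% of the median main gene in yw, 45.0% and 42.0% in HP1b16, and 66.2% and 70.9% in HP1b86. The genes are near-identical copies, so reads may be divided between them by the counting, and the value of each is uncertain. The sum is free of that division within the pair, and it too was higher in both HP1b86 libraries than in the other 4. HP1b lies on the same chromosome, with 127 genes between it and RpS14b in the annotation.

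**Figure D3:**
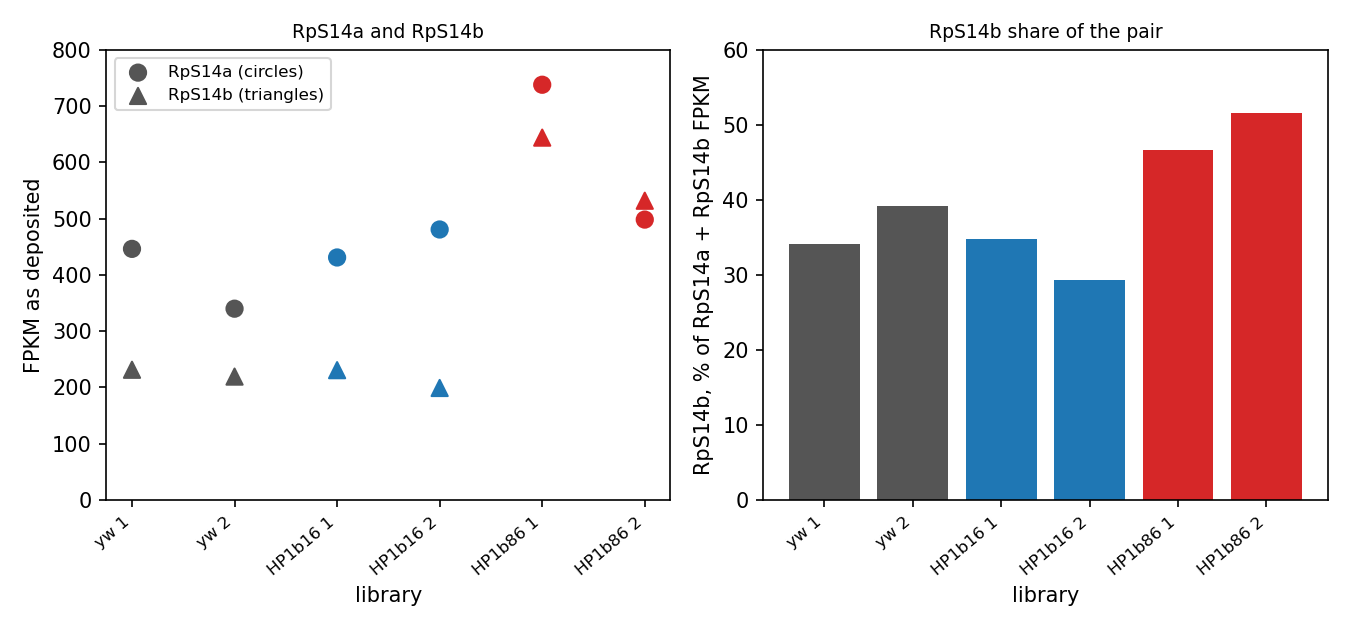
Left, FPKM as deposited of RpS14a (circles) and RpS14b (triangles) in the 6 libraries; right, RpS14b as a percentage of the FPKM of both genes. RpS14b is at 644 and 532 FPKM in HP1b86 and at 199 to 231 FPKM in the other 4 libraries, and its share of the pair is 46.6% and 51.6% against 29.3% to 39.2%.

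The other paralogs fell into kinds by level and by how they varied. RpS14b reached 41.4% to 107% of RpS14a, and RpL34a reached 17.0% to 21.2% of RpL34b. RpL24-like stood at 6.41% to 10.7% of RpL24, RpS15Ab at 3.15% to 4.13% of RpS15Aa, RpL7-like at 2.52% to 3.94% of RpL7 and RpLP0-like at 1.68% to 2.67% of RpLP0. The remaining 8 paralogs stayed at or below 3.33% of their main gene in every library. Of the 13 paralogs tested, none kept the mutant libraries apart from the yw libraries as deposited, and after scaling 3 were lower in all 4 (RpL24-like, RpL7-like and RpS15Ab). Over all tested rows it was 24.4% higher and 19.8% lower as deposited, and 43.4% lower after scaling. The median log2 fold change of the 13 was -0.26 in HP1b16 and 0.22 in HP1b86 as deposited, and -0.50 and -0.36 after scaling.

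RpL34a followed its main gene. It stood at 199 and 175 FPKM in yw, at 194 and 232 in HP1b16, and at 316 and 243 in HP1b86, with a log2 fold change in HP1b86 of 0.57 (SE 0.20, adjusted p = 0.144 from limma) beside 0.50 for RpL34b (SE 0.21, adjusted p = 0.199). After scaling the values were -0.03 and -0.10. RpS15Ab stood at 58.2 and 46.9 FPKM in yw, at 47.0 and 52.8 in HP1b16, and at 61.3 and 44.2 in HP1b86. As a share of RpS15Aa it was 4.13% and 3.64% in yw, 3.50% and 3.40% in HP1b16, and 3.15% and 3.32% in HP1b86, lower in each of the 4 mutant libraries than in both yw libraries.

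RpL24-like, RpL7-like and RpLP0-like are related to the yeast assembly factors Rlp24, Rlp7 and Mrt4, which hold the place of a ribosomal protein in the maturing large subunit. RpL24-like stood at 119 and 114 FPKM in yw, at 95.7 and 97.6 in HP1b16, and at 110 and 118 in HP1b86. Its share of RpL24 was 10.7% and 10.0% in yw, 8.22% and 7.13% in HP1b16, and 6.41% and 8.86% in HP1b86, lower in each mutant library. The log2 fold change of RpL24-like was -0.26 in HP1b16 (SE 0.11, adjusted p = 0.238 from limma) and -0.03 in HP1b86 (SE 0.11, adjusted p = 0.927), and after scaling -0.50 (SE 0.19, adjusted p = 0.212) and -0.63 (SE 0.19, adjusted p = 0.0741). On the scaled values RpL24-like was not called in the mean of both mutants, at -0.56 (SE 0.17, adjusted p = 0.0762 from limma). Its log2 value there was -0.45 without the first and -0.68 without the second HP1b86 library, fits that leave 1 library for that genotype. RpL7-like, in a row with the gene CG34164, ranged from 39.2 to 52.6 FPKM and RpLP0-like from 21.2 to 30.0 FPKM. Neither was called on either scale in any comparison with all 6 libraries.

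The remaining paralogs are RpL10Aa, RpL22-like, RpL37b, RpS5b, RpS10a, RpS19b, RpS28-like and RpS28a. RpL22-like and RpS5b are known for RNA in the germ line, RpL22-like in the testis and RpS5b in the ovary. All 8 had their highest FPKM in the second HP1b86 library, and the 7 that were above 0 in both HP1b86 libraries were 2.71 to 7.34 times higher there than in the first, while all 78 main genes were lower. RpL10Aa showed the widest range, with 11.1 and 5.56 FPKM in yw, 4.65 and 3.73 in HP1b16, and 1.95 and 14.3 in HP1b86. The HP1b86 libraries thus held both the lowest and the highest value of the series. RpL22-like stood at 14.2 and 10.3 FPKM in yw, at 6.25 and 9.10 in HP1b16, and at 8.91 and 26.4 in HP1b86. RpS5b stood at 15.3 and 9.70 FPKM in yw, at 8.89 and 9.72 in HP1b16, and at 9.01 and 25.7 in HP1b86. Its main gene RpS5a went the other way in HP1b86, from 1858 to 1259 FPKM.

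The second HP1b86 library was also the highest for the others of this kind. RpS19b stood at 18.0 and 11.8 FPKM in yw, at 8.60 and 11.7 in HP1b16, and at 12.3 and 34.8 in HP1b86. RpL37b stood at 16.5 and 7.83 FPKM in yw, at 9.92 and 9.14 in HP1b16, and at 10.0 and 27.2 in HP1b86. Both thus had their highest and an intermediate value within HP1b86. RpS10a stood at 11.0 and 5.91 FPKM in yw, at 4.48 and 5.05 in HP1b16, and at 4.13 and 15.1 in HP1b86. RpS28-like, in a row with CG3769, stood at 4.71 and 2.71 FPKM in yw, at 1.70 and 1.95 in HP1b16, and at 1.48 and 7.92 in HP1b86. In all 4 of these genes the first yw library was above the second. RpS28a was too low to be tested, with 0.23 and 0.44 FPKM in yw, 0 and 0.09 in HP1b16, and 0 and 1.18 in HP1b86. It is listed at 0 in the first library of each mutant.

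As a share of the main gene, which is free of library scaling, RpL10Aa stood at 1.27% and 0.688% of RpL10Ab in yw, at 0.550% and 0.396% in HP1b16, and at 0.156% and 1.74% in HP1b86. RpS19b stood at 1.09% and 0.742% of RpS19a in yw, at 0.488% and 0.610% in HP1b16, and at 0.421% and 1.59% in HP1b86. Among all 14 paralogs this share was highest in the second HP1b86 library for 9 and lowest in the first for 10. None of the 7 tested genes of this kind was called with all 6 libraries on either scale. In HP1b16 their log2 fold changes were between -0.78 and -0.24 as deposited with standard errors of 0.52 to 0.85.

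**Figure D4:**
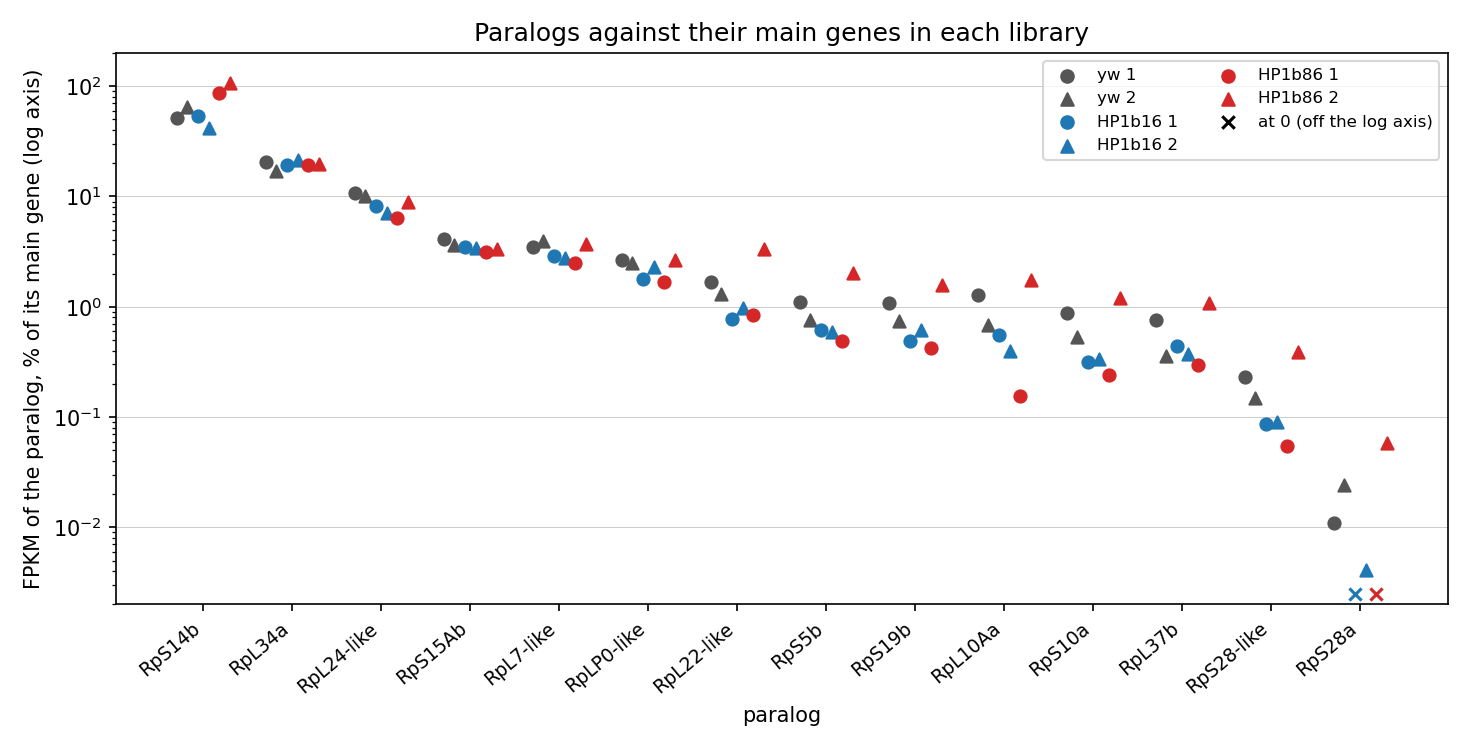
FPKM of each of the 14 paralogs as a percentage of its main gene (log axis) in the 6 libraries, with circles for the first and triangles for the second library of a genotype. RpS14b is higher in both HP1b86 libraries, RpL34a stays between 17.0% and 21.2%, and RpL10Aa spans 0.156% to 1.74% within HP1b86.

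Genes listed for expression in the testis moved with these paralogs. The list includes dhd, which is not a testis gene and was kept as listed. All 26 listed testis genes were found, all 26 were higher in the second than in the first HP1b86 library, with a median of 5.55 times, all 26 were highest in the second HP1b86 library and 23 were lowest in the first. The summed FPKM of the 23 testis genes that have a row of their own was 784 and 442 in yw, 327 and 342 in HP1b16, and 207 and 1324 in HP1b86, and no testis gene was at 0 in any library. The order of these sums, with the first HP1b86 library lowest, then HP1b16, then yw, and the second HP1b86 library highest, was also that of RpL10Aa. Of 12 germline genes, 11 were higher in the second HP1b86 library, with a median of 2.02 times, and their sums were 15.8 and 14.8 FPKM in yw, 26.6 and 22.8 in HP1b16, and 18.7 and 26.8 in HP1b86. The sex of the larvae in a library is not given in the labels. The part of the testis genes' shift in the paralogs' values was not tested. RpS14b, RpL34a and RpS15Ab did not share the shift, at 0.826, 0.769 and 0.720 times in the second against the first HP1b86 library.

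**Figure D5:**
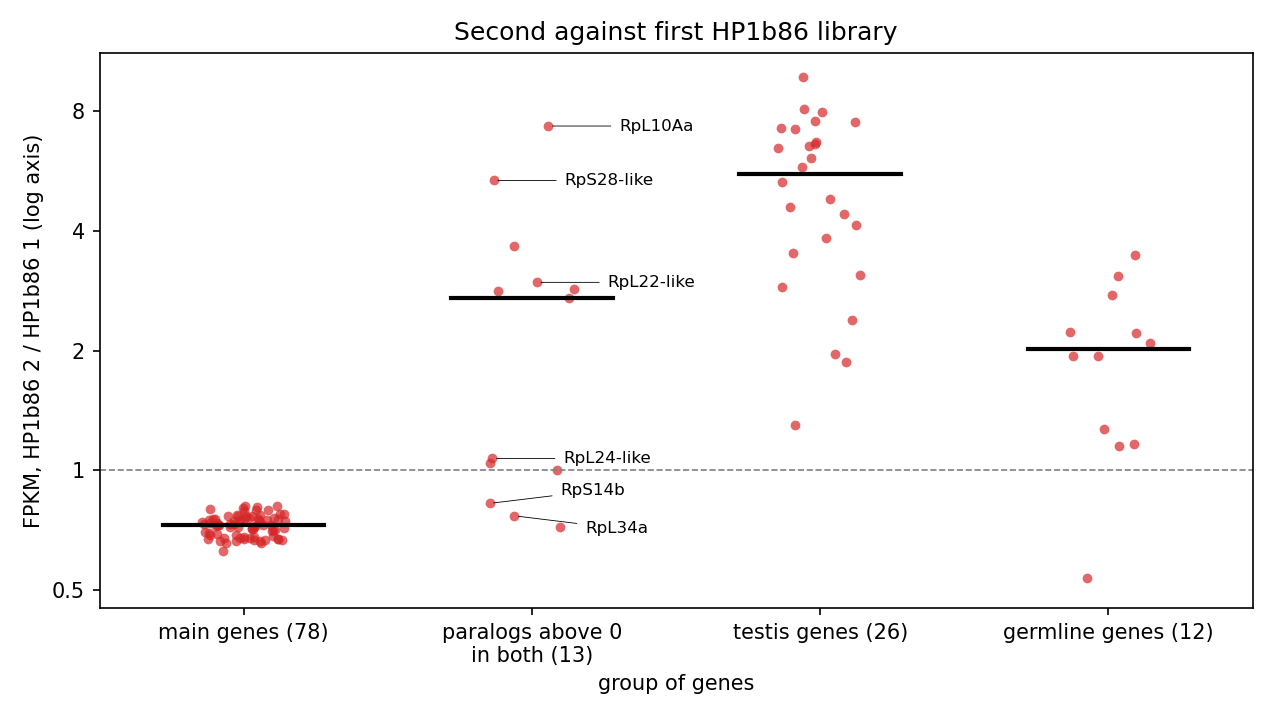
FPKM in the second over the first HP1b86 library (log axis) for the 78 main genes, the 13 paralogs above 0 in both, 26 listed testis genes and 12 germline genes, with the median of each group as a black line. The main genes lie between 0.627 and 0.813, the testis genes have a median of 5.55, and RpL10Aa lies at 7.34.

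Other genes of the ribosome and of growth control were read from a list of which 48 genes were tested. As deposited, limma called 0 higher and 1 lower in the mean of both mutants, where 6.38% of all rows were called. It called 0 in HP1b16 and 0 in HP1b86, where 0.0182% and 4.03% of all rows were called. At an unadjusted p under 0.05 the counts were 4 in HP1b16 and 5 in HP1b86, beside 23.7% and 30.0% of all rows. The 26 genes for nucleolar and assembly factors, among them Fib (fibrillarin) and Nop56, had, over both mutants averaged, a median log2 fold change of 0.04, with 0 called. The 6 genes for rRNA synthesis had a median of 0.01. Of them 0 were called and 0 had an unadjusted p under 0.05, beside 31.1% of all rows. The main ribosomal protein genes had a median of 0.24 in that comparison. After scaling, the medians were -0.36 for both groups and -0.18 for the main genes. Of the 48 genes, 4 were called lower in the mean of both mutants and 8 in HP1b86. Beside 11.1% and 18.9% of all rows called in either direction, neither share was above that of all rows. In the lower direction alone, 656 and 1600 of 10986 rows were called, and both shares of the 48 genes were above these. Within the 13 growth control genes it was 3 and 7 of 13, and both of these shares were above those of all rows. The scaled medians of these 13 were -0.52 and -0.78, beside -0.45 and -0.53 over all rows. The list includes qm and kra, which do not encode a ribosomal protein or an assembly factor and were kept as listed. The small-subunit genes outside the symbol rule stayed with the block. The gene sta stood at 1500 and 1558 FPKM in yw, at 1596 and 1718 in HP1b16, and at 2076 and 1534 in HP1b86, and Rack1 lay above both yw libraries in all 4 mutant libraries as deposited, with 1342 and 1414, 1728 and 1718, and 2162 and 1423 FPKM. Neither was called.

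The gene called lower in the mean of both mutants was Thor, the Drosophila 4E-BP, which holds back cap-dependent translation when growth signals are low. Thor stood at 1329 and 1482 FPKM in yw, at 630 and 501 in HP1b16, and at 884 and 787 in HP1b86, so every mutant library was below both yw libraries. For both mutants averaged, Thor had a log2 fold change of -1.03 (SE 0.17, adjusted p = 0.0455 from limma). In the single mutants it was -1.32 in HP1b16 (SE 0.20, adjusted p = 0.0709) and -0.75 in HP1b86 (SE 0.20, adjusted p = 0.0921). After scaling, Thor passed in both, with -1.56 in HP1b16 (SE 0.19, adjusted p = 0.0387) and -1.35 in HP1b86 (SE 0.19, adjusted p = 0.0385). As deposited, the call in the mean of both mutants was lost when any of the yw or HP1b16 libraries was left out. It was also lost with the replicate number as a block (adjusted p = 0.134 from limma). No tested row at all was called in any of those fits, so these losses are not particular to Thor. The call of Thor was lost too with median-ratio scaling (adjusted p = 0.0731), where 467 of 10986 rows were called. With no filter on low values it was lost (adjusted p = 0.0614) where 461 of 15058 rows were called.

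Of the 92 genes, 10 share their row with other genes, and their values cannot be separated from those of the neighbours. They are RpL3, RpL13A, RpL22, RpL23A, RpL28, RpL7-like, RpS6, RpS18, RpS27A and RpS28-like. Among them RpS6, the main substrate of the S6 kinase on the ribosome, shares its row with a small nucleolar RNA gene and a further noncoding gene, and stood at 1508 and 1574 FPKM in yw, at 1647 and 1746 in HP1b16, and at 2123 and 1415 in HP1b86. Nothing was called among these 10 with all 6 libraries. The genes are spread over the genome, with 19 on chromosome arm 2L, 21 on 2R, 14 on 3L, 23 on 3R, 1 on chromosome 4 and 14 on the X. All 92 were found in the reference annotation, 90 by symbol and 2 by synonym.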

How the data were processed

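The authors isolated RNA with Trizol and, per the labels, used bcl2fastq 2.18.0.12 for read conversion, Trim Galore 0.4.1 for trimming, TopHat2 2.1.1 for alignment to dm3 and Cufflinks 2.2.1 for FPKM. Each gene has 1 deposited FPKM value per library. Its gene annotation, and any scaling between libraries, are not given in the sources used here. FPKM are not counts, so no counting interval can be given. The labels gave each column its genotype, and 0 columns were left unmapped.

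Values were taken as log2(FPKM + 1), so fold changes of low genes are understated. Rows averaging 1 FPKM or more, 10986 in number, were tested genome-wide with limma 3.58.1 in R 4.3.3, with a mean-variance trend, all 6 libraries in 1 fit and prior degrees of freedom of 1.59. The p-values were adjusted over all rows (Benjamini-Hochberg, threshold 0.05). The comparisons were HP1b16 and HP1b86 against yw, their mean against yw, and HP1b16 against HP1b86. Both mutants share the yw libraries. The procedure was tested on simulated data. Alternatives were 3 scalings, a pseudocount of 0.1 FPKM, no filter on low values, genotypes fitted alone, a replicate block and leaving out each library. A total over rows above 0 in all libraries, and leaving out each HP1b86 library on scaled values, were added after seeing the data.

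The genes, the lists and the rule for named genes were chosen with earlier results of these data known. The rule took all paralog sets, the 3 most abundant genes, RpL32, the 5 highest and 5 lowest main genes by the scaled mean change, every gene called, genes at 0, genes in shared rows and the extremes between the HP1b86 libraries. The genes sta, Rack1, Fib and Nop56 from the list, the larval markers, RpL5 and RpL8 were named after their values were seen. Names, chromosomes and transcript lengths came from a Drosophila annotation of another build, so no coordinates are given. Sequences were not used here.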

Additional observations from a re-analysis of the deposited data

How the results depend on the processing

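The median change of the main genes against yw moved with the scaling. It was -0.13, -0.26 and -0.18 in HP1b16, HP1b86 and the mean of both mutants with libraries scaled to the same total, -0.16, -0.29 and -0.24 with quantile normalization, and -0.16, -0.20 and -0.16 with the total over rows above 0 in all libraries. On scaled values it was -0.13, -0.31 and -0.21 without HP1b86 replicate 1, and -0.13, -0.21 and -0.16 without HP1b86 replicate 2. With median-ratio scaling it was 0.22, 0.39 and 0.32, with 78, 77 and 78 of 78 genes above 0. As deposited, leaving out 1 library gave 0.05 to 0.17 in HP1b16 and 0.10 to 0.57 in HP1b86. The count of genes called in HP1b86, 1 as reported, was 3 with the same total, 2 with the total over rows above 0, 0 with median-ratio scaling, 0 with quantile normalization, 0 with genotypes fitted alone, 0 to 26 without 1 library, and 11 on scaled values without HP1b86 replicate 2. Of all 10986 rows, HP1b86 had 1635 called with the total over rows above 0 and 828 with quantile normalization. It had 1 called with median-ratio scaling and 0 with genotypes fitted alone, so the 0 in these fits is not particular to ribosomal protein genes. With the replicate number as a block, 0 ribosomal protein genes and 0 of all rows were called in HP1b86. The block changed no other count of ribosomal protein genes called. The numbers do not pair the samples, since the differences between libraries correlated at 0.074, -0.401 and -0.115 between genotypes. In the mean of both mutants the count was 1 with quantile normalization (RpS27, -0.59, adjusted p = 0.0420 from limma, in place of 0.07), 0 to 10 without 1 library, and on scaled values 1 and 10 without the first and the second HP1b86 library. On scaled values it was 4 in HP1b16 without either HP1b86 library (RpL24-like, RpL22-like, RpL7-like and RpS28-like, lower), where 4855 and 4860 of 10986 rows were called. Between the mutants it was 0 to 5 without 1 library and, on scaled values, 4 and 1 without the first and the second HP1b86 library. The call of RpS27 with quantile normalization stood beside 1246 of 10986 rows called in the mean of both mutants. On scaled values, the fits without an HP1b86 library leave 1 library for that genotype, which then has no spread of its own. Many of all rows were called in those fits too, so their counts are not read as particular to ribosomal protein genes. The cause of the differences between settings was not tested. With no read numbers in the table, the counting error of the low paralogs is unknown.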
